A study of Mus musculus with 8 samples.

Results

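The genes described here lose transcript in natural killer T (NKT) cells without Ezh2: the long noncoding RNA 9530036M11Rik and the coding genes Rsrp1, Slc22a3, Igsf23, Trf, Dennd5a, Emilin1 and Fibcd1. They are 8 of 27179 gene identifiers in the count table, and all 8 were among the 13794 genes with enough counts to be tested. They were chosen by their measured fall in Ezh2-KO over WT along the NKT subsets, so the genotype values below describe them and carry no test. Of the 8, 7 were lower in each Ezh2-KO library than in each WT library of its subset, a pattern met by 14.5% of tested genes. For Slc22a3 in CD44+ NK1.1+ cells this rests on 28 counts in Ezh2-KO and 49 in WT. Fibcd1 was not lower in the earliest subset, so its fall was seen in the later subsets only.

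RNA was sequenced from thymic NKT cells of C57BL/6 mice that were Ezh2-KO or WT. Each genotype gave 2 libraries of CD44+ NK1.1- cells, stated to be biological replicates, and 1 library each of CD44- NK1.1- and CD44+ NK1.1+ cells. The groups are therefore Ezh2-KO and WT CD44- NK1.1- (n = 1 each), Ezh2-KO and WT CD44+ NK1.1- (n = 2 each), and Ezh2-KO and WT CD44+ NK1.1+ (n = 1 each). The design of the Ezh2 allele, any Cre that deletes it, the ages and the number of animals behind a library are not stated in the labels. The labels also do not tell if 1 animal gave several subsets. With 1 library in a group there is no replicate check within that subset.

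Ezh2 is the main catalytic subunit of Polycomb repressive complex 2 (PRC2), which methylates histone H3 at lysine 27 and is known for keeping genes silent, often those with CpG-rich promoters. Thymic NKT cells are T cells that recognise lipids on CD1d, and they are commonly staged by gaining first CD44 and then NK1.1, the product of Klrb1c.

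Ezh2 itself had 78.4 CPM (TMM-scaled counts relative to library size) in Ezh2-KO and 109 CPM in WT CD44- NK1.1- cells. It had 83.3 and 77.9 CPM in Ezh2-KO against 113 and 136 CPM in WT CD44+ NK1.1- cells, and 40.4 CPM in Ezh2-KO against 57.1 CPM in WT CD44+ NK1.1+ cells. Reads over the whole gene thus stayed at 64.5% to 72.2% of WT, lower in each Ezh2-KO library than in the WT of its subset, which goes the way of the labels. All 10 NKT marker genes were detected, with summed levels of 2959 to 8062 CPM in Ezh2-KO and 3115 to 8069.9 CPM in WT libraries. Klrb1c had 15.4 CPM in Ezh2-KO and 32.3 CPM in WT CD44- NK1.1- cells, and 1447 CPM in Ezh2-KO against 1146 CPM in WT CD44+ NK1.1+ cells, as the gate implies. In CD44+ NK1.1- cells it had 50.03 and 41.7 CPM in Ezh2-KO and 217 and 68.5 CPM in WT, so WT replicate 1 of that gate held more Klrb1c transcript than the other 3 libraries. Library depth was 20308745 to 22995090 counts, and 3 counts, the limit that a count of 0 allows, correspond to 0.129 to 0.151 CPM.

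Promoter sequences are shown for 4 of the genes because these first RefSeq starts span the range of CpG content found among them, and CpG content is a sequence property known to be tied to PRC2 binding. Each runs 5′ to 3′ over the 300 bases that RefSeq (GRCm38.p6, the mm10 assembly) places from 250 before to 50 after the transcript start, with every CpG in capitals. The windows are chr6:54152397-54152696 (minus strand) for 9530036M11Rik, chr4:134923375-134923674 (plus strand) for Rsrp1, chr7:19953605-19953904 (minus strand) for Igsf23 and chr2:31845956-31846255 (minus strand) for Fibcd1.
9530036M11Rik: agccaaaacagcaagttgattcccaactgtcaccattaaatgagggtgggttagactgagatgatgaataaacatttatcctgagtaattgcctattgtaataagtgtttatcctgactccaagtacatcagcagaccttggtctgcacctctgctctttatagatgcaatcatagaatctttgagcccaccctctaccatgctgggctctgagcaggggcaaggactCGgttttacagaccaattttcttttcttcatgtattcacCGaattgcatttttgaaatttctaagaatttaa
Rsrp1: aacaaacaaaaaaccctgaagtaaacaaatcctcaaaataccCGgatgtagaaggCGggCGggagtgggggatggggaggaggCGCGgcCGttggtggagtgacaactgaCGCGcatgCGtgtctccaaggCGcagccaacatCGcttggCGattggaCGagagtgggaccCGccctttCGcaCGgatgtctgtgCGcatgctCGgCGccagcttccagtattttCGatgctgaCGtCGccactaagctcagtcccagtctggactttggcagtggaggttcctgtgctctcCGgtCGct
Igsf23: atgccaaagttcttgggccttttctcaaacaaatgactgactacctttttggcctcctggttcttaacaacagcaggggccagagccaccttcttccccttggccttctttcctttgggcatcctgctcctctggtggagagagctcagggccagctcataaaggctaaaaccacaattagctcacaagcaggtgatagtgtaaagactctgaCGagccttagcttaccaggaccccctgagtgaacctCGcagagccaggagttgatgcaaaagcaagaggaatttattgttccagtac
Fibcd1: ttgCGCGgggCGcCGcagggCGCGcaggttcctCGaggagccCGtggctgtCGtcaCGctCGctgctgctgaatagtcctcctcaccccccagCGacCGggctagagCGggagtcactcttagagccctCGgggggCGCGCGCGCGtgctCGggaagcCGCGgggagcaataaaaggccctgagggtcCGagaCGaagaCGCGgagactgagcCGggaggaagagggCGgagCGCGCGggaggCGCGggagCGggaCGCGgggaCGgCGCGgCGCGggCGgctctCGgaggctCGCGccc

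The 9530036M11Rik window holds 2 CpGs and the Igsf23 window holds 2, whereas Rsrp1 has 24 and Fibcd1 has 46. The ratio of observed to expected CpG was 0.17 for 9530036M11Rik, 0.11 for Igsf23, 0.95 for Rsrp1 and 1.14 for Fibcd1, beside a median of 0.39 over 27025 promoters, 1 per gene. The Fibcd1 ratio was above that of 98.8% of promoters, and the Igsf23 ratio was above that of 15.0% of them. Among the remaining members Dennd5a was CpG-rich (0.86, 32 CpGs), and Slc22a3 (0.25, 5 CpGs) and Emilin1 (0.23, 6 CpGs) were CpG-poor. The 7 matched members therefore fall on both sides of the genome median, with 3 above and 4 below. RefSeq lists a second start for Igsf23 (ratio 0.31, 7 CpGs, above 42.6% of promoters), 9530036M11Rik (0.23) and Dennd5a (0.87). No RefSeq promoter was matched for Trf. The windows of Fibcd1 and Emilin1 (chr5:30913536-30913835) lie inside the gene spans given below, and not at their upstream ends. The bases at those ends were not examined.

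Short motifs were searched on both strands of the same windows, counting the first start of each gene. TCF/LEF letters CTTTGA were present in 2 of 7 members (9530036M11Rik and Slc22a3, with 2 matches in Slc22a3) and in 16.2% of all promoters. RUNX letters TGTGGT were present in Igsf23 and Dennd5a, 2 of 7, and in 16.9% of all promoters. The E-box CAGCTG was present in Dennd5a and Emilin1, 2 of 7, and in 16.1% of all promoters. TATAAA was present in 9530036M11Rik, 1 of 7, against 14.2% of all promoters. The T-box letters GGTGTGA (3.96% of all promoters), the GATA letters AGATAA (11.4%), the E-box CACGTG (7.24%), the ETS letters CCGGAAGT (4.0%) and the CRE letters TGACGTCA (1.88%) were in 0 of 7. At second starts 9530036M11Rik had a GATA match, Igsf23 had a CAGCTG and a CTTTGA match, and Dennd5a had the same matches as at its first. These matches describe letters in a window and not binding.

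**Figure D1:**
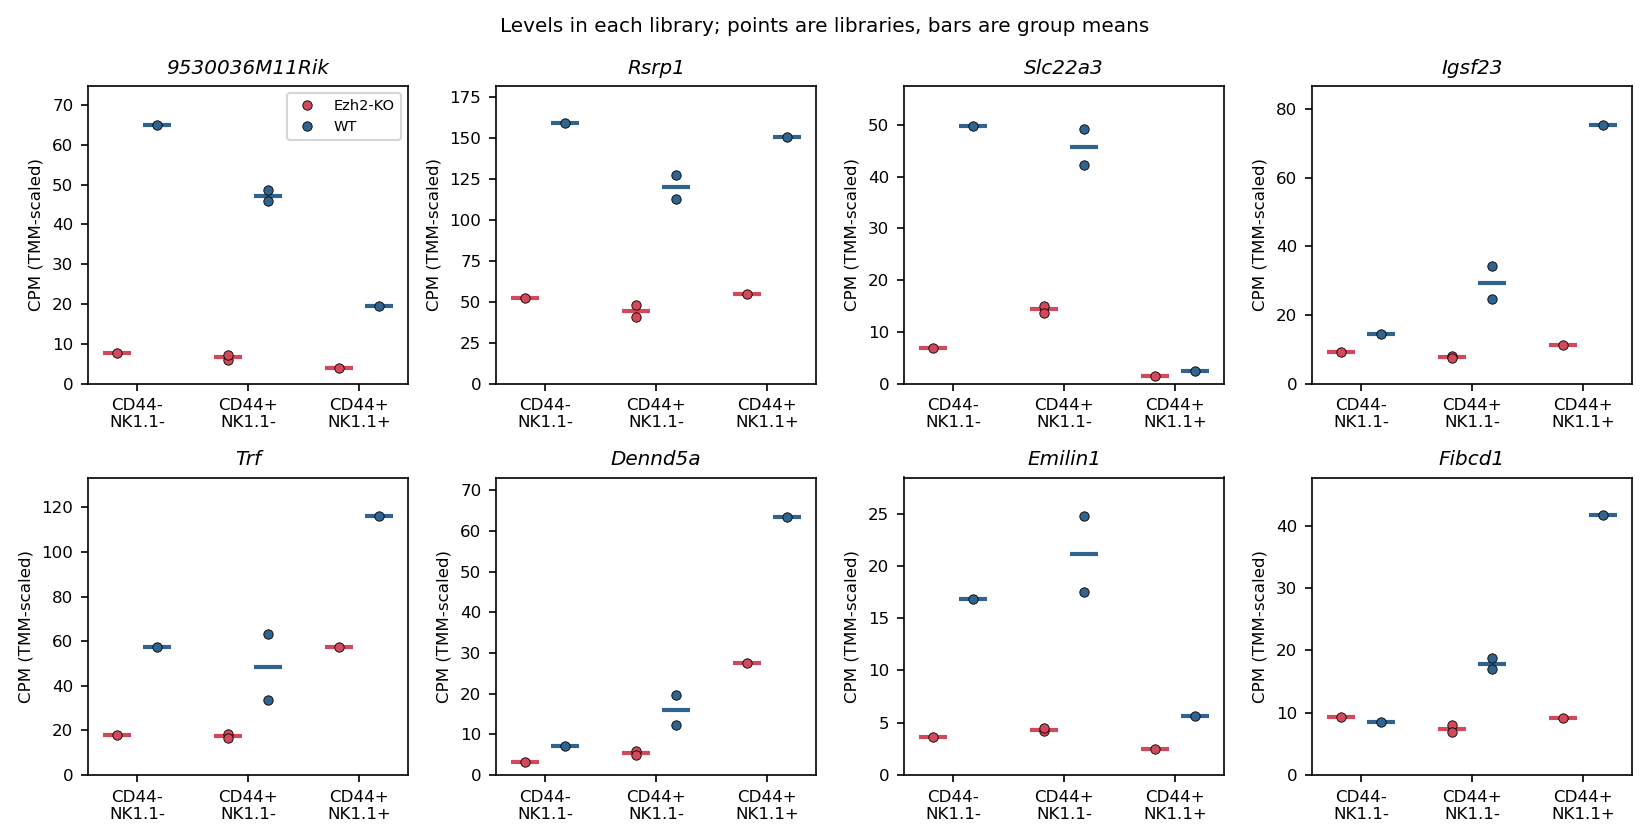
Level of each of the 8 genes (CPM, TMM-scaled, linear axis from 0) in the 3 subsets, Ezh2-KO in red left of WT in blue. Points are libraries and bars are group means; 9530036M11Rik stays between 4.02 and 7.74 CPM in all Ezh2-KO libraries, while Igsf23 and Fibcd1 climb with the subset order in WT and lie between 7.42 and 11.4 CPM (Igsf23) and 6.88 and 9.25 CPM (Fibcd1) in Ezh2-KO.

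The deepest loss was in 9530036M11Rik, an RNA of unknown function (gene 78616, chr6:54137935-54152446). It had 7.74 CPM in Ezh2-KO and 64.9 CPM in WT CD44- NK1.1- cells. In CD44+ NK1.1- cells it had 5.91 and 7.29 CPM in Ezh2-KO against 48.5 and 45.8 CPM in WT, and in CD44+ NK1.1+ cells 4.02 CPM in Ezh2-KO against 19.5 CPM in WT. Every Ezh2-KO library was below every WT library, across subsets as well as within them. The log2 difference over the 3 subsets was -2.77 (SE 0.14), and 11.9%, 14.05% and 20.6% of the WT level was left in CD44- NK1.1-, CD44+ NK1.1- and CD44+ NK1.1+ cells.

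Rsrp1 encodes an arginine- and serine-rich protein (gene 27981, chr4:134923625-134927370) and showed the most even loss. It had 52.3 CPM in Ezh2-KO and 159 CPM in WT CD44- NK1.1- cells. In CD44+ NK1.1- cells the levels were 40.5 and 47.6 CPM in Ezh2-KO and 113 and 127 CPM in WT, and in CD44+ NK1.1+ cells 54.7 CPM in Ezh2-KO and 150.2 CPM in WT. No Ezh2-KO library reached any WT library. The 3 subsets kept 32.9%, 36.8% and 36.5% of WT in that order, and the log2 difference was -1.49 (SE 0.08), the smallest error of the 8. Per kilobase Rsrp1 was also the most abundant member in each WT library, with 79.6 to 112 RPKM, where Dennd5a had 1.42 to 12.8 RPKM in the WT libraries.

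Membrane and transport genes come next. Slc22a3 encodes an organic cation transporter (gene 20519, chr17:12419972-12507704) in the imprinted Igf2r cluster. It had 6.96 CPM in Ezh2-KO against 49.9 CPM in WT CD44- NK1.1- cells, and 15.02 and 13.6 CPM in Ezh2-KO against 42.3 and 49.2 CPM in WT CD44+ NK1.1- cells. In CD44+ NK1.1+ cells the gene was nearly off in both genotypes, with 1.41 CPM (28 counts) in Ezh2-KO and 2.36 CPM (49 counts) in WT. The loss was therefore clear in the NK1.1- subsets, with 13.96% and 31.2% of WT left, and poorly measured in CD44+ NK1.1+ cells, with 59.6% left and a counting interval of 36.1% to 96.7%. Intervals of this kind cover counting error only, and all are at the 95% level.

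Igsf23 (gene 70080, chr7:19937305-19953654) encodes a little-studied member of the immunoglobulin superfamily. It had 9.21 CPM in Ezh2-KO and 14.4 CPM in WT CD44- NK1.1- cells, and 7.92 and 7.42 CPM in Ezh2-KO against 34.3 and 24.5 CPM in WT CD44+ NK1.1- cells. In CD44+ NK1.1+ cells it had 11.4 CPM in Ezh2-KO and 75.5 CPM in WT. The gap between genotypes widened along the subset order, with 64.02% (53.4% to 76.6%), 26.1% and 15.1% of WT left.

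Trf encodes transferrin, the iron carrier of serum (gene 22041, chr9:103208876-103230286). It had 17.96 CPM in Ezh2-KO and 57.3 CPM in WT CD44- NK1.1- cells, and 57.3 CPM in Ezh2-KO and 116 CPM in WT CD44+ NK1.1+ cells. In CD44+ NK1.1- cells the levels were 18.6 and 16.7 CPM in Ezh2-KO against 63.1 and 33.7 CPM in WT. The WT replicates differed most here of all members, by 0.90 on the log2 scale, and the log2 difference of -1.46 (SE 0.31) in that subset was -0.93 without WT replicate 1. The share left was 31.4%, 36.7% and 49.3% over the subset order. In GENCODE M21, 63.5% of the exon bases of Trf are shared with Gm20425 on the same strand, so these transcripts cannot be set apart.

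Dennd5a encodes a DENN domain exchange factor for Rab GTPases (gene 19347, chr7:109893780-109960470). It had 3.30 CPM in Ezh2-KO and 7.06 CPM in WT CD44- NK1.1- cells, and 5.82 and 4.81 CPM in Ezh2-KO against 19.6 and 12.3 CPM in WT CD44+ NK1.1- cells. In CD44+ NK1.1+ cells it had 27.6 CPM in Ezh2-KO and 63.5 CPM in WT. Each Ezh2-KO library was below the WT of its own subset, but the Ezh2-KO CD44+ NK1.1+ library exceeded the WT libraries of the earlier subsets. The share left was 46.7%, 33.5% and 43.6%.

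Secreted and fibrinogen-type proteins make up the rest. Emilin1 encodes an elastic-fibre glycoprotein (gene 100952, chr5:30913387-30921279). It had 3.67 CPM in Ezh2-KO and 16.8 CPM in WT CD44- NK1.1- cells, and 4.24 and 4.45 CPM in Ezh2-KO against 17.5 and 24.8 CPM in WT CD44+ NK1.1- cells. CD44+ NK1.1+ cells had 2.51 CPM in Ezh2-KO and 5.69 CPM in WT. All Ezh2-KO libraries lay below all WT libraries, with 21.8%, 20.5% and 44.2% of WT left. Emilin1 is typical of stromal cells, and of 8 fibroblast markers Col3a1, Dcn, Lum and Pdgfra were at 0 counts in all 8 libraries. The fibroblast list summed to 8.19 to 35.05 CPM in Ezh2-KO and 7.76 to 40.9 CPM in WT libraries, most of it Fbln1 (3.77 to 30.5 CPM in Ezh2-KO and 4.73 to 38.5 CPM in WT). Col1a1 had 3.47 to 4.41 CPM in Ezh2-KO and 1.85 to 2.17 CPM in WT (1.03, adjusted p = 0.00745 by edgeR), and Pdgfrb had 0.09 to 0.955 CPM in Ezh2-KO and 0.602 to 0.991 CPM in WT. The part of such cells in the Emilin1 values was not tested.

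Fibcd1 encodes a membrane receptor for acetylated compounds such as chitin (gene 98970, chr2:31813290-31846964). It had 9.25 CPM (202 counts) in Ezh2-KO and 8.50 CPM (189 counts) in WT CD44- NK1.1- cells, which is 109% of WT with a counting interval of 88.9% to 134%. In CD44+ NK1.1- cells it had 8.01 and 6.88 CPM in Ezh2-KO against 18.7 and 16.98 CPM in WT, and in CD44+ NK1.1+ cells 9.10 CPM in Ezh2-KO against 41.7 CPM in WT. The genotypes were thus not apart beyond counting error in the earliest subset. In CD44+ NK1.1- cells each Ezh2-KO library lay below each WT library, and 41.6% of WT was left. In CD44+ NK1.1+ cells 21.8% was left, with a counting interval of 18.5% to 25.7%. Neither genotype has a replicate in that subset, so overlap between libraries could not be checked there.

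**Figure D2:**
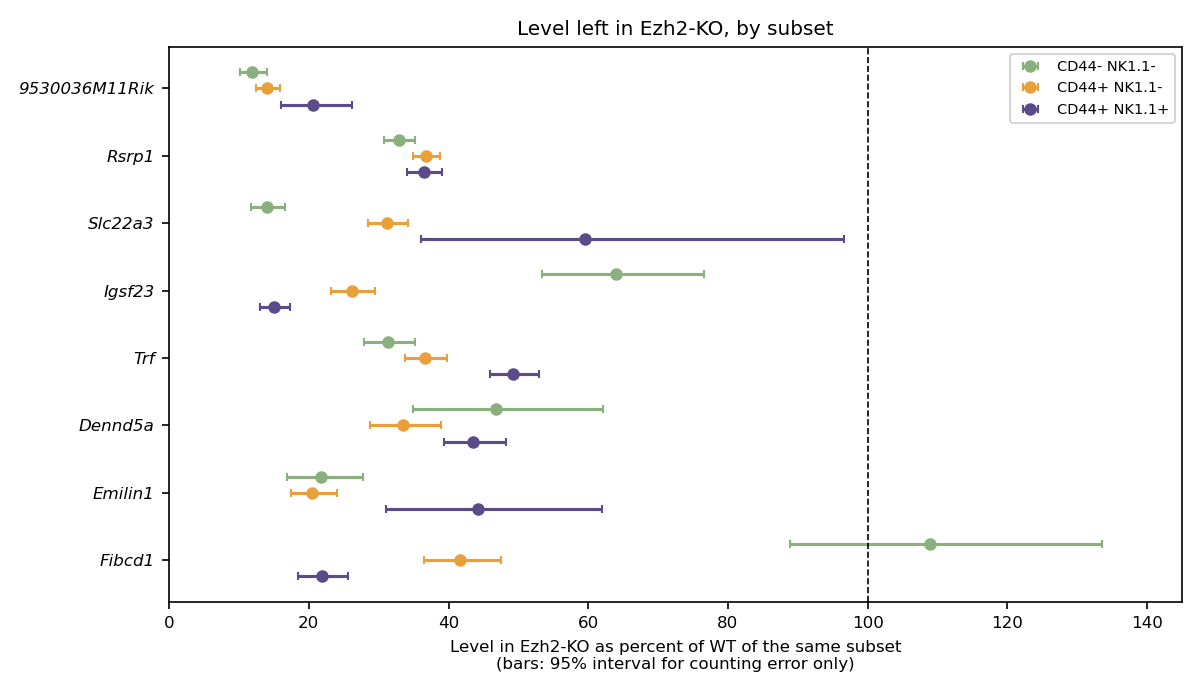
Level in Ezh2-KO as a percent of the WT level of the same subset for each gene, with 95% intervals for counting error only; the dashed line marks 100%. Rsrp1 sits at 32.9% to 36.8% in every subset, Slc22a3 and 9530036M11Rik shift right along the subset order, Igsf23 and Fibcd1 shift left, and Fibcd1 in CD44- NK1.1- cells is the one point whose interval crosses the line.

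Across the 8 genes, 7 were lower in each Ezh2-KO library than in each WT library of the same subset, a pattern met by 2003 of 13794 genes (14.5%). Rsrp1, 9530036M11Rik, Trf, Dennd5a and Emilin1, 5 of the 8, had at most 50% of the WT level left in all 3 subsets, a pattern met by 55 genes (0.399%). Since the genes were chosen for this contrast, neither share says anything more about them. In 9530036M11Rik, Rsrp1, Igsf23 and Emilin1 all Ezh2-KO libraries lay below all WT libraries across subsets. The share of all genes with that pattern was not computed. By edgeR over the 3 subsets 887 of all genes were called higher (6.43%) and 674 lower (4.89%) in Ezh2-KO, and 1046 higher and 490 lower with scaling by library size alone.

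In bulk RNA, fewer cells of a type and less RNA per cell cannot be told apart. A list of 18 genes of the NKT1 programme, high in NK1.1+ cells, summed in CD44+ NK1.1- cells to 1211 and 1168 CPM in Ezh2-KO against 3074 and 1962 CPM in WT. The members whose WT level was highest in CD44+ NK1.1+ cells were also higher in WT replicate 1 than in WT replicate 2. On the log2 scale they differed by 0.90 (Trf), 0.67 (Dennd5a), 0.49 (Igsf23) and 0.14 (Fibcd1), beside 1.67 for Klrb1c. Between the Ezh2-KO replicates these members differed the same way, by 0.15 (Trf), 0.27 (Dennd5a), 0.09 (Igsf23) and 0.22 (Fibcd1), beside 0.26 for Klrb1c. The part of cell composition in their genotype values within this gate was not tested. Erythroid markers summed to 0.675 to 59.5 CPM in Ezh2-KO and 1.12 to 1.81 CPM in WT libraries (Hba-a1 at 0.315 to 44.7 CPM in Ezh2-KO and 0.539 to 0.86 CPM in WT), and macrophage markers to 3.87 to 9.40 CPM in Ezh2-KO and 4.17 to 9.10 CPM in WT. Double positive thymocyte markers summed to 30.9 to 74.5 CPM in Ezh2-KO and 45.5 to 98.9 CPM in WT, with a median log2 difference of -0.89 over the 3 subsets and -1.15 in CD44+ NK1.1- cells. B cell markers summed to 59.9 to 93.6 CPM in Ezh2-KO and 78.2 to 121 CPM in WT. NK cell markers summed to 82.5 to 1931 CPM in Ezh2-KO and 27.2 to 872 CPM in WT. The part of these lists in the members' values was not tested.

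The comparison between subsets asks how the 8 genes behave as NKT cells acquire NK1.1. It is the mean over both genotypes, so the genotype difference that chose the genes is balanced in it. It still uses the same libraries, and the share of members called was not tested apart from that choice. Between CD44+ NK1.1+ and CD44+ NK1.1- cells 7 of 8 were called by edgeR's quasi-likelihood test (adjusted p under 0.05), where 32.5% of all genes were. Of the members 4 rose and 3 fell, beside 16.4% of all genes higher and 16.1% lower. Dennd5a rose by a log2 difference of 2.19 (SE 0.20, adjusted p = 0.00139), Trf by 1.48 (SE 0.25, adjusted p = 0.0121), Igsf23 by 0.96 (SE 0.16, adjusted p = 0.00726) and Fibcd1 by 0.76 (SE 0.12, adjusted p = 0.00763). The largest change was in Slc22a3, at -3.81 (SE 0.16, adjusted p = 0.000283 by edgeR), with Emilin1 at -1.34 (SE 0.20, adjusted p = 0.00554) and 9530036M11Rik at -0.99 (SE 0.13, adjusted p = 0.00402).

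Rsrp1 alone was not called there, at 0.32 (SE 0.10, adjusted p = 0.0581 by edgeR). The Trf call was lost without Ezh2-KO CD44+ NK1.1- replicate 2 (adjusted p = 0.0559), as was that of Fibcd1 (0.70, adjusted p = 0.0621). Among all genes 2262 were higher and 2217 lower in this comparison; with library size alone the split was 1533 higher and 3294 lower and the median of all genes was -0.13, against 0 with TMM. The 7 members kept their directions under it.

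**Figure D3:**
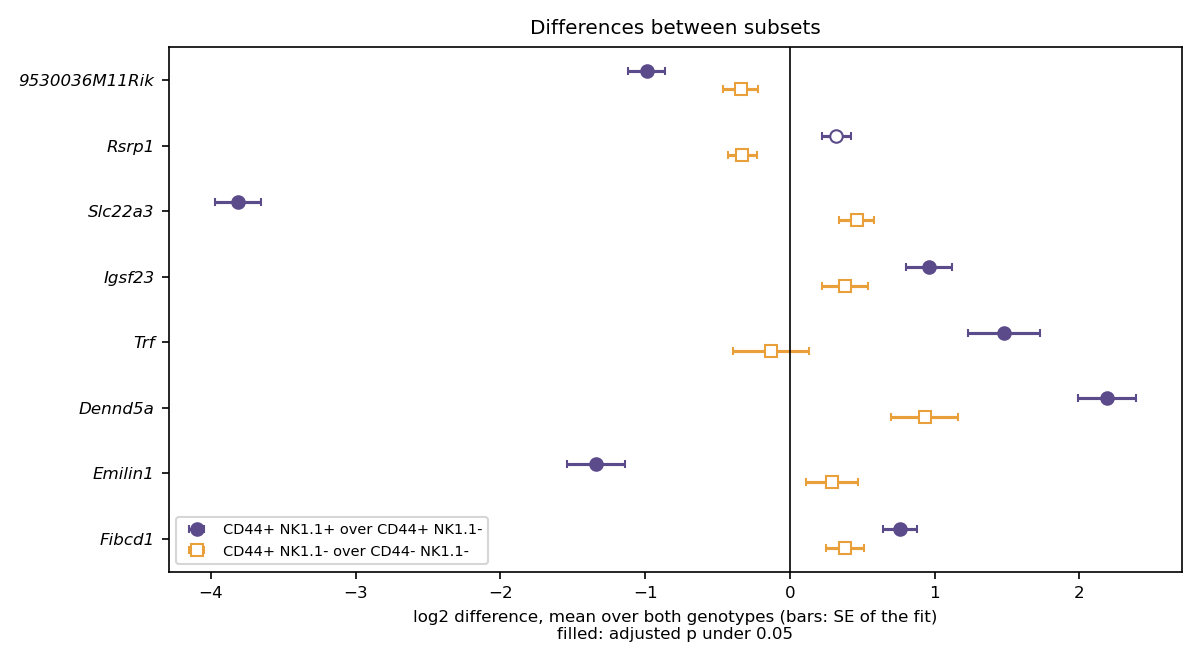
Log2 difference between subsets, averaged over both genotypes, with the standard error of the fit, for CD44+ NK1.1+ over CD44+ NK1.1- cells (circles) and CD44+ NK1.1- over CD44- NK1.1- cells (squares); filled symbols passed an adjusted p of 0.05. The circles spread between -3.81 (Slc22a3) and 2.19 (Dennd5a), and no square is filled.

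Against the earliest subset, CD44+ NK1.1+ cells differed in the same 7 genes, with 32.2% of all genes called by edgeR. Dennd5a rose by 3.12 (adjusted p = 0.000807), Igsf23 by 1.35 (adjusted p = 0.00401), Trf by 1.35 (adjusted p = 0.0268) and Fibcd1 by 1.13 (adjusted p = 0.00325). The log2 difference was -3.35 for Slc22a3 (adjusted p = 0.000247), -1.34 for 9530036M11Rik (adjusted p = 0.00184) and -1.05 for Emilin1 (adjusted p = 0.0165). Rsrp1 was at -0.01 (SE 0.12). The Trf call was lost without Ezh2-KO CD44+ NK1.1- replicate 1 or 2 (adjusted p = 0.064 and 0.0646). With library size alone the whole-genome split of 2206 higher and 2232 lower became 1651 higher and 3328 lower, and the median of all genes moved to -0.16.

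Fewer genes were called between the NK1.1- subsets. Between CD44+ NK1.1- and CD44- NK1.1- cells 0 of 8 members were called by edgeR or limma-voom, 5 of 8 had an unadjusted p under 0.05, and DESeq2 called Dennd5a alone. Of all genes 2.66% were called. Dennd5a had the largest difference, 0.93 (SE 0.23, adjusted p = 0.125), then Slc22a3 at 0.46 (SE 0.12, adjusted p = 0.139). The count of 0 was 8 without WT CD44+ NK1.1- replicate 1 and 6 without WT replicate 2, in fits whose spread comes from the Ezh2-KO pair alone.

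Within a genotype, the subset pattern was not the same for all genes. From 1 library each, with no spread between samples, Igsf23 in CD44+ NK1.1+ over CD44- NK1.1- cells was 1.23-fold in Ezh2-KO (counting interval 1.02 to 1.499) and 5.25-fold in WT (4.65 to 5.94). Fibcd1 was 0.98-fold in Ezh2-KO (0.80 to 1.21) and 4.90-fold in WT (4.19 to 5.77). The fold of both genes was smaller in Ezh2-KO than in WT beyond counting error, while Dennd5a climbed in both, 8.38-fold in Ezh2-KO and 8.99-fold in WT. Slc22a3 was 0.202-fold in Ezh2-KO and 0.0474-fold in WT, so its drop was deeper in WT. Emilin1 (0.686-fold in Ezh2-KO, 0.338-fold in WT) and 9530036M11Rik (0.519-fold in Ezh2-KO, 0.301-fold in WT) went the same way. Trf climbed in both, 3.19-fold in Ezh2-KO (2.84 to 3.59) and 2.03-fold in WT (1.90 to 2.17). Rsrp1 was 1.05-fold in Ezh2-KO and 0.944-fold in WT, with intervals that overlap. The share of all genes whose intervals differ in this way was not computed.

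**Figure D4:**
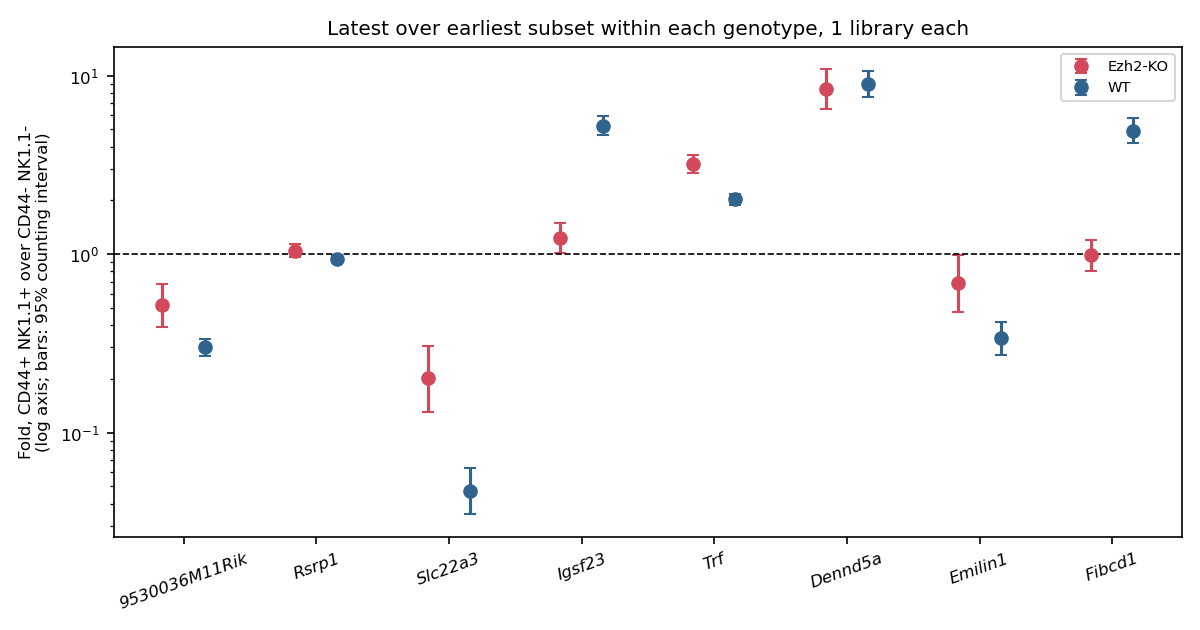
Fold of CD44+ NK1.1+ over CD44- NK1.1- cells within each genotype on a log axis, Ezh2-KO left of WT, 1 library per subset and genotype, bars showing 95% counting intervals. Counting intervals do not overlap between genotypes for Igsf23 (1.23 in Ezh2-KO, 5.25 in WT) and Fibcd1 (0.98 in Ezh2-KO, 4.90 in WT). The same holds for Trf, Slc22a3, Emilin1 and 9530036M11Rik. Those of Dennd5a (8.38 in Ezh2-KO, 8.99 in WT) and Rsrp1 overlap. No spread between samples is shown, and the share of all genes whose intervals are apart was not computed.

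The choice of genes that fall in each subset used the genotype difference of each subset, so its change between subsets is given for the members as a description. Between CD44+ NK1.1+ and CD44- NK1.1- cells the log2 difference of the genotype effect was -2.32 (SE 0.30) for Fibcd1, -2.09 (SE 0.37) for Igsf23 and 2.09 (SE 0.34) for Slc22a3. It was 1.02 (SE 0.45) for Emilin1, 0.79 (SE 0.29) for 9530036M11Rik and 0.65 (SE 0.60) for Trf, and Rsrp1 (0.15, SE 0.24) and Dennd5a (-0.10, SE 0.51) had the smallest values. Over all genes edgeR called 0 (0%) in this comparison, with 657 at an unadjusted p under 0.05, 38 called by DESeq2 and 0 by limma-voom. It called 3 genes (0.0217%) for CD44+ NK1.1- with CD44- NK1.1- cells. For CD44+ NK1.1+ with CD44+ NK1.1- cells it called 0 (0%), with 519 at an unadjusted p under 0.05, 24 called by DESeq2 and 0 by limma-voom.

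The genes also differ in which others they resemble over the 8 libraries, by Pearson's r of log2 CPM, a description in which all genes share the same libraries. Igsf23 and Fibcd1 were each other's closest match (r = 0.975), and the promoter windows printed above differ in CpG ratio, 0.11 for Igsf23 (0.31 at its second start) and 1.14 for Fibcd1. Over the 28 pairs of members r had a median of 0.628 and a lowest value of -0.432, for Slc22a3 with Dennd5a. The members were chosen for a fall in the same libraries, which by itself favours a positive r. The median over pairs of other genes was not computed. Outside the group, 9530036M11Rik was most like Lgals3 (r = 0.987), the gene of galectin-3, which had 114 CPM in Ezh2-KO against 239 CPM in WT CD44- NK1.1- cells. Lgals3 differed by -0.96 over the 3 subsets (SE 0.06, adjusted p = 0.000246 by edgeR). Dennd5a was most like Evi2a and the kinase gene Fgr (r = 0.994 each), Trf most like Tnrc6b (0.99) and Wtap (0.989), and Emilin1 most like the homeobox gene Lhx2 (0.979) and Plaa (0.965). Lhx2 was scarce, with 0.151 to 0.495 CPM in Ezh2-KO and 0.579 to 1.68 CPM in WT. Slc22a3 was most like Isg20l2 (0.977) and Snrpb2 (0.976), Rsrp1 most like Zbtb11 (0.973) and Gramd1b (0.969), Igsf23 next most like Htt (0.969), Fibcd1 next most like Slc39a4 (0.972), and 9530036M11Rik next most like Srp72 (0.981).

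The nearest tested genes on the chromosome mostly did not share the fall of the 8. Some of them lie far off, as the 5 toward higher coordinates from Igsf23 are 3990 to 4220 kb away. Of the 80 nearest tested genes, 5 on either side of each member, 6 were called higher and 5 lower in Ezh2-KO over the 3 subsets by edgeR, and their median log2 difference was -0.01, as over all genes. Called neighbours made up 13.8%, near the 11.3% of all genes. Of all genes 6.43% were called higher and 4.89% lower. The count of lower neighbours was 12 without WT CD44+ NK1.1- replicate 1, 2 without either Ezh2-KO CD44+ NK1.1- replicate and 3 without either CD44+ NK1.1+ library.

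At 3 loci a called lower gene lay right beside the member. Pvr, the poliovirus receptor gene 16.2 kb from Igsf23, had 14.2 CPM in Ezh2-KO against 24.9 CPM in WT CD44- NK1.1- cells, and 42.3 CPM in Ezh2-KO against 76.7 CPM in WT CD44+ NK1.1+ cells. It differed by -0.90 (SE 0.09, adjusted p = 0.00192 by edgeR), with Bcl3 beyond it at -0.47 (SE 0.09, adjusted p = 0.0142). Qrfp, a neuropeptide gene 2.71 kb from Fibcd1, had 1.37 CPM in Ezh2-KO and 2.38 CPM in WT CD44- NK1.1- cells, and 16.4 CPM in Ezh2-KO and 28.9 CPM in WT CD44+ NK1.1+ cells. The log2 difference of Qrfp was -1.41 (SE 0.35, adjusted p = 0.044 by edgeR). Aif1l, the nearest tested gene on the other side of Fibcd1, was called higher, at 1.22 (SE 0.21, adjusted p = 0.00986 by edgeR). The span of 9530036M11Rik lies inside that of Chn2 (chr6:54039932-54301812), a Rac GTPase-activating protein gene, with no shared exon base in GENCODE M21. Chn2 differed by -0.33 (SE 0.05, adjusted p = 0.00789 by edgeR), with 252 CPM in Ezh2-KO and 324 CPM in WT CD44- NK1.1- cells. Whether reads of unspliced Chn2 RNA enter the count of 9530036M11Rik was not tested, since no source used here gives the strand setting.

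Around the other genes the nearest neighbours were not called. Slc22a3 lies 175 kb from Igf2r (-0.22, adjusted p = 0.284 by edgeR) and 234 kb from Airn (0.30, adjusted p = 0.725), the noncoding RNA of that imprinted cluster. In GENCODE M21 9.31% of its exon bases are shared with Plg on the opposite strand, and Plg had at most 1 count in any library. Khk, 0.157 kb from Emilin1, was at 0.22 (adjusted p = 0.354 by edgeR) and Ost4 on its other side at 0.12. Syf2 (-0.04) and Tmem50a (0.04) flank Rsrp1, Srprb (0.02) and Topbp1 (-0.13) flank Trf, and Tmem41b (-0.03) and Tmem9b (-0.15) flank Dennd5a. The called neighbours that rose included Ryk, 301 kb from Trf, with 63.3 to 81.9 CPM in Ezh2-KO and 6.70 to 33.1 CPM in WT libraries (2.56, SE 0.34, adjusted p = 0.00966 by edgeR). Wipf3 and Fkbp14 near 9530036M11Rik, Slco2a1 near Trf, Aif1l near Fibcd1 and Clic4 near Rsrp1 were the other 5 that rose, and Selenon near Rsrp1 fell by 0.74 (adjusted p = 0.0273 by edgeR).

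**Figure D5:**
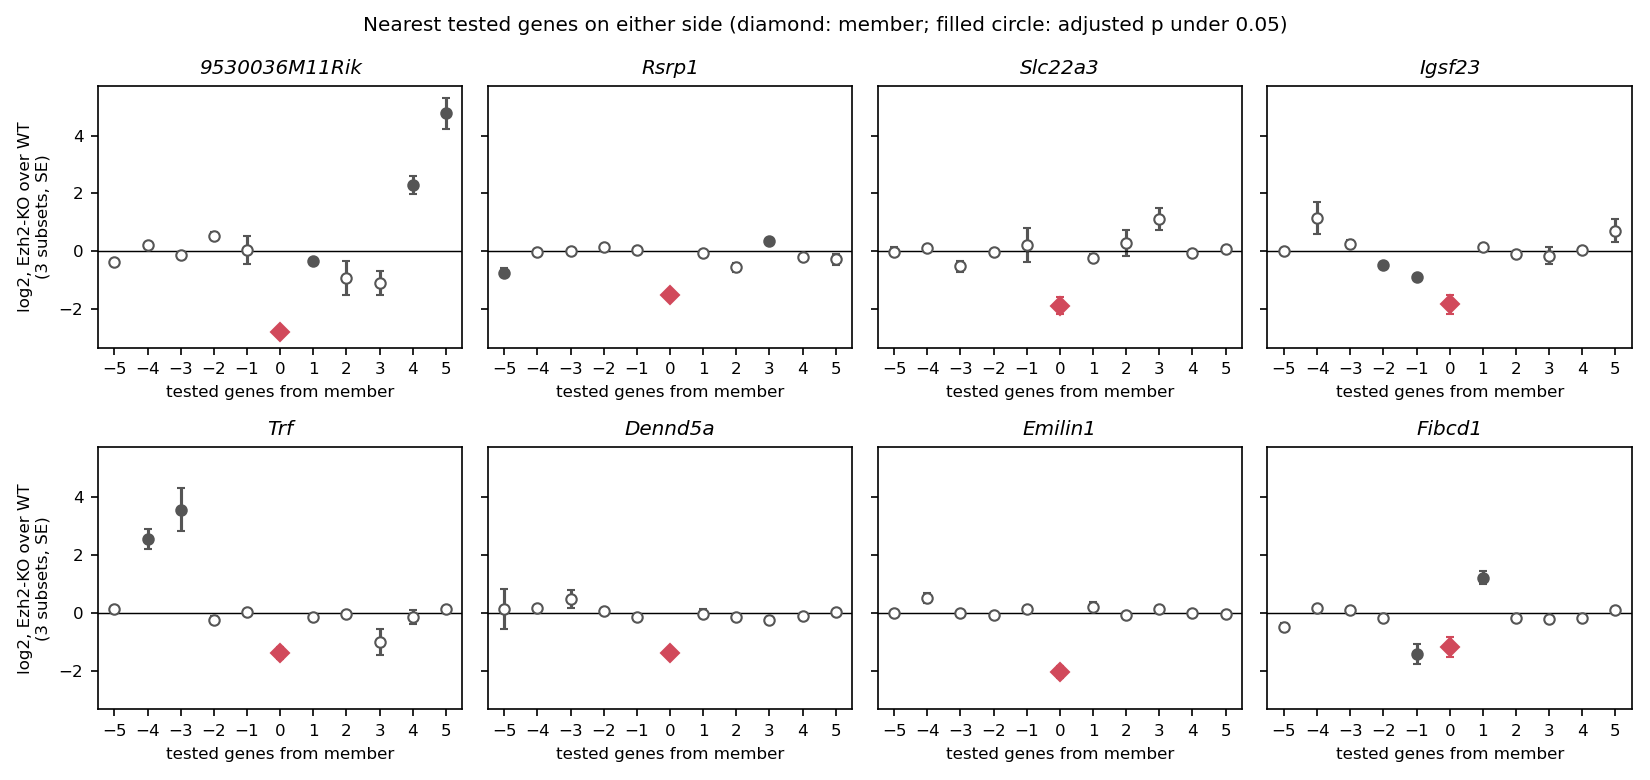
Log2 difference, Ezh2-KO over WT over the 3 subsets with standard error, of each member (diamond at 0) and the 5 nearest tested genes toward lower (negative) and higher (positive) coordinates; filled circles passed an adjusted p of 0.05. Most circles lie near 0 while the diamonds lie between -2.77 and -1.17. Filled circles below 0 sit directly beside 9530036M11Rik, Igsf23 and Fibcd1. On the other side of Fibcd1 the nearest circle is filled and above 0 (Aif1l, 1.22).

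Relatives and partners of the 8 genes are read against all genes, of which 6.43% were called higher and 4.89% lower over the 3 subsets. Of 6 tested SLC22 transporters besides Slc22a3, 0 were called by edgeR, DESeq2 or limma-voom, with 3 at an unadjusted p under 0.05, and their median log2 difference was 0.41, beside -0.01 for all genes. Slc22a15, the best expressed of those named here, had 24.3 to 24.8 CPM in Ezh2-KO and 27.5 to 29.5 CPM in WT (-0.22, adjusted p = 0.0696 by edgeR). Of 19 genes of iron uptake and storage, 1 rose and 0 fell by edgeR (1 had an unadjusted p under 0.05 in the lower direction, and DESeq2 and limma-voom called 0 lower), with a median of -0.02. The one that rose was the scarce Meltf (3.02, adjusted p = 0.0266), which was not called without Ezh2-KO CD44+ NK1.1- replicate 1 or 2, either CD44+ NK1.1+ library, or WT CD44+ NK1.1- replicate 2. Tfrc, the transferrin receptor, was at -0.16 (adjusted p = 0.136 by edgeR).

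Rsrp1 is related to the SR family of splicing factors. Of 31 SR and SR-related genes tested, 8 fell and 0 rose by edgeR (median -0.08), and 1 had an unadjusted p under 0.05 in the higher direction. Clk1, a kinase of SR proteins, had 36.4 to 50.4 CPM in Ezh2-KO and 56.8 to 94.5 CPM in WT (-0.78, adjusted p = 0.032). Son (-0.27, adjusted p = 0.0157), Luc7l3 (-0.30, adjusted p = 0.0331) and Srrm2 (-0.31, adjusted p = 0.0299 by edgeR) moved less. The count of 8 was 3 with scaling by library size alone (1 rose), 0 as the mean of the 3 genotype effects, 0 without either Ezh2-KO CD44+ NK1.1- replicate, and 1 or 2 without WT CD44+ NK1.1- replicate 2 or any library of the other subsets.

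DENN domain genes went both ways, with 2 rising (Sbf2 0.37 and Dennd2d 0.31) and 1 falling of 21 tested (median 0.01). The gene that fell was Dennd4c, with 50.8 to 72.5 CPM in Ezh2-KO and 70.6 to 108 CPM in WT (-0.52, SE 0.06, adjusted p = 0.00253 by edgeR). At most 1 of these rises was left without any single library other than WT CD44+ NK1.1- replicate 1, and none as the mean of the 3 genotype effects. Elastic-fibre and EMILIN-related genes that were called moved opposite to Emilin1, with 5 rising and 0 falling by edgeR of 14 tested (median 0.60; 2 had an unadjusted p under 0.05 in the lower direction, and DESeq2 and limma-voom called 0 lower). Fbn2, a fibrillin gene, had 1.11 to 11.7 CPM in Ezh2-KO and 0.0482 to 1.46 CPM in WT (3.17, adjusted p = 0.000685). The integrin genes Itga4 (1.0) and Itgb1 (0.82), whose products pair as a receptor for EMILIN1, rose as well (adjusted p = 0.000883 and 0.000885), and so did Ltbp4 (1.4, adjusted p = 0.0145 by edgeR). The count of 5 was 3 without either Ezh2-KO CD44+ NK1.1- replicate.

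Of 12 immunoglobulin-superfamily and CEACAM genes other than Igsf23, 3 fell (Pvr, Igsf3 and Igsf8) and 1 rose (Nectin3, 3.31, adjusted p = 0.00197 by edgeR), with a median of 0.16. The fallers dropped to 1 under library size alone and without any single library other than WT CD44+ NK1.1- replicate 1. Of 5 fibrinogen-domain genes other than Fibcd1, 0 were called by any of the 3 tools, with 2 at an unadjusted p under 0.05 by edgeR and a median of 0.25. Fgl2 is high in CD44+ NK1.1+ cells, as Fibcd1 is in WT only. Fgl2 had 798 CPM there in Ezh2-KO and 1149 CPM in WT (-0.98 over the 3 subsets, SE 0.41, adjusted p = 0.204 by edgeR). Among 11 PRC2 genes Ezh2 was the only one called (-0.56, SE 0.07, adjusted p = 0.00402 by edgeR), with Ezh1 at -0.14 (adjusted p = 0.328) and Eed at -0.22 (adjusted p = 0.11). Of 18 NKT1 genes 3 fell and 0 rose by edgeR (Id2 -0.43, Tbx21 -0.96 and Cxcr3 -0.49; median -0.89), DESeq2 called 8 lower and 1 higher, and limma-voom called 5 lower and 1 higher. Without single libraries the lower count ranged between 0 and 6. Of 17 immediate early genes 2 fell (Egr1 -0.51 and Dusp2 -0.60; median -0.60), and WT CD44+ NK1.1- replicate 1 stood apart in their summed level, at 3917 CPM against 1054 CPM in WT replicate 2. Without it 7 fell and 5 rose, and without any other single library 0 to 2 fell. Leaving out WT CD44+ NK1.1- replicate 1 also raised the number of all genes called to 2794, and then 1 SLC22 gene rose and 1 fell, 1 fibrinogen-domain gene rose, 1 iron gene fell, 2 PRC2 genes fell and 4 DENN genes fell.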

How the data were processed

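RNA of thymic NKT cells was sequenced in 8 libraries of 6 groups. Per the submitters' processing notes, the authors used CASAVA, aligned reads to mm10 with Subread 1.4.3-p1 and counted them with featureCounts; neither the annotation nor a strand setting is given in the sources used here. The authors deposited raw whole-number read counts, and the deposited table also gives each gene's Length in bases, used here for RPKM. The single-library files and the series table held equal counts. Library depth was 20308745 to 22995090 counts.

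Of 27179 identifiers 25275 matched a RefSeq symbol. Genes were kept by filterByExpr (13794), scaled by TMM and tested in R 4.3.3 with edgeR 4.0.16 (estimateDisp, glmQLFit robust, glmQLFTest), with Benjamini-Hochberg adjustment over all 13794 genes. The genotype difference over 3 subsets came from an additive model of subset and genotype (residual degrees of freedom 4, biological coefficient of variation 0.137). Subset comparisons and differences of the genotype effect came from a mean for each of 6 groups (residual degrees of freedom 2, coefficient 0.141), in which the 2 replicated groups give the spread for the single libraries too. All adjusted p are from edgeR unless another tool is named. Intervals on ratios are exact binomial intervals for the counts, rescaled by library size. The alternatives were DESeq2 1.42.0, limma-voom (limma 3.58.1), DESeq2 size factors, library size alone, no filter, each library left out, the mean of 3 genotype effects, and for promoters a window without the bases after the start. The steps were tested on simulated data.

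The members and all gene lists were chosen with earlier results of these data known. Genes named were the 8 members, Ezh2, Klrb1c, the nearest and the called among 5 tested neighbours on each side, the 2 genes most like each member by Pearson's r of log2 CPM (prior count 2), and up to 4 genes per list with the smallest p; Plg was named for its overlap. Other cell types were checked with marker lists. Lists not described in the results gave, by edgeR over the 3 subsets, 2 higher and 0 lower of 10 NKT markers, 0 and 1 of 4 B cell markers, 0 and 0 of 5 macrophage markers, 0 and 1 of 4 dendritic cell markers, 0 and 0 of 1 thymic epithelium marker, 1 and 0 of 3 fibroblast markers, 0 and 0 of 1 endothelium marker, 1 and 0 of 5 erythroid markers, 0 and 0 of 8 double positive thymocyte markers, 3 and 0 of 8 NK markers, and 0 and 0 of 2 other genes of the Igf2r cluster.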

Additional observations from a re-analysis of the deposited data

Results flagged for a closer look

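Fibcd1 was flagged because its log2 difference, Ezh2-KO over WT, was 0.12 (SE 0.21) in CD44- NK1.1- cells, on the other side of 0 than in CD44+ NK1.1- (-1.26) and CD44+ NK1.1+ cells (-2.20). The value in CD44- NK1.1- cells lies within counting error of no difference. The difference between subsets was not tested apart from the values that chose the gene, and CD44- NK1.1- and CD44+ NK1.1+ cells have 1 library of each genotype.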

How the results depend on the processing

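No member reversed its genotype difference over the 3 subsets under any alternative run. The span was widest for Fibcd1 (-1.59 to -0.81) and Igsf23 (-2.22 to -1.51), each set by single libraries. The number of genes called for genotype over the 3 subsets was 951 as the mean of 3 genotype effects, against 1561 in the additive model, and 489 to 2794 with a library left out. In CD44+ NK1.1- cells it was 101 to 5792 with a library left out. For CD44+ NK1.1+ over CD44+ NK1.1- cells it was 1519 to 8585, for CD44+ NK1.1- over CD44- NK1.1- cells 83 to 4394, and for CD44+ NK1.1+ over CD44- NK1.1- cells 2167 to 8661. Leaving out 1 of a replicated pair leaves the other pair alone to give the spread. Differences of the genotype effect gave, for CD44+ NK1.1+ minus CD44+ NK1.1-, CD44+ NK1.1- minus CD44- NK1.1- and CD44+ NK1.1+ minus CD44- NK1.1- cells in that order, 1, 24 and 23 genes with no filter and 24, 28 and 38 by DESeq2, and 0 to 2634, 1 to 3063 and 0 to 997 with a library left out. With no filter the Trf call in CD44+ NK1.1+ over CD44- NK1.1- cells was lost (adjusted p = 0.053). Sign changes occurred in 6 values that were called neither in the main fit nor where the sign changed, all with a CD44+ NK1.1- replicate left out. Trf in CD44+ NK1.1- over CD44- NK1.1- cells ranged between -0.40 and 0.06 with a library left out. Its genotype effect differed by -0.09 to 0.82 (CD44+ NK1.1+ minus CD44+ NK1.1-) and by -0.17 to 0.74 (CD44+ NK1.1- minus CD44- NK1.1-). For Rsrp1 the first of these differences ranged between -0.12 and 0.11, and for Emilin1 the second between -0.31 and 0.19. The Trf values of -0.40, 0.82 and 0.74 were called, in fits without a WT replicate whose spread comes from the Ezh2-KO pair alone. The cause of the sign changes was not tested. Rsrp1 in CD44+ NK1.1+ over CD44+ NK1.1- cells was called without either WT replicate (adjusted p = 1.92e-05 and 1.99e-08). The promoter CpG ratio of Rsrp1 was 1.06 without the bases after the start. Counts for lists and neighbours under these alternatives were chosen after seeing the data. No paired analysis was possible because the labels give no replicate numbers. Depth limits Slc22a3 in CD44+ NK1.1+ cells most, at 28 counts in Ezh2-KO and 49 in WT.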
